A study of Homo sapiens with 6 samples.

Results

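The von Hippel-Lindau gene VHL, the subunits of the hypoxia-inducible factors and genes known as their targets were examined in SPOP knockdown cells. The members were 33 genes listed by symbol, and all 33 had a value among the 24551 genes of the RNA-Seq tables. Of these, 29 reached 1 FPKM on average and were tested, and CA9, CA12, LOX and ANKRD37 lay under that level and are described only. FPKM counts fragments relative to transcript length and to all fragments mapped in a library, so levels can be compared between genes of unequal length.

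SPOP is the substrate receptor of a cullin-RING ubiquitin ligase, and it was knocked down by siRNA in DU145, a prostate cancer cell line, and in 769-P, a clear cell renal carcinoma line. Each line gave 3 libraries, which were a negative control siRNA (NC) and knockdowns with siRNA 1 or siRNA 2 against SPOP. The study's methods had DU145 grown in DMEM and 769-P in RPMI. The time from transfection to RNA extraction was not given for these libraries in the sources used here. Each tissue was represented by 1 established line, so tissue of origin, VHL status, culture medium and every other difference between the lines cannot be told apart. In bulk RNA, fewer cells with a transcript and less transcript per cell cannot be told apart either.

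Hypoxia-inducible factors are pairs of an oxygen-regulated alpha subunit, HIF-1 alpha from HIF1A or HIF-2 alpha from EPAS1, and the stable partner ARNT. In normal oxygen the prolyl hydroxylases of the EGLN family hydroxylate the alpha subunits, and the VHL ubiquitin ligase then recognises them and sends them to the proteasome. Regulation by oxygen and VHL acts mostly on the protein, which RNA-Seq does not measure, while the target genes respond at the RNA level. Clear cell renal carcinoma is known for loss of VHL, and 769-P is widely used as a line that lacks functional VHL. The known targets cover angiogenesis (VEGFA), pH control (CA9, CA12), collagen modification (P4HA1, P4HA2, PLOD1, PLOD2), mitophagy (BNIP3, BNIP3L) and feedback on the pathway (EGLN1, EGLN3).

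The SPOP transcript, which checks the knockdown, went from 11.6 FPKM in the 769-P control to 1.53 and 1.39 FPKM with siRNA 1 and siRNA 2, and from 16.1 to 2.77 and 2.96 FPKM in DU145. All 5 renal markers tested were higher in 769-P, with PAX8 at 106 to 125 FPKM against 1.10 to 1.47 FPKM in DU145, and the 6th, VCAM1, was under the level for testing. Of 9 prostate or epithelial markers, 6 were tested and all 6 were higher in DU145, whereas KLK3 and HOXB13 were at or near 0 there, with 0.312 FPKM of KLK3 as the highest value. Among all genes tested between the lines, 18.2% were called higher and 32.0% lower in 769-P. PAX2 and CDH6 entered the test only through 769-P, and CDH1 only through DU145, so the direction of these markers was fixed by the filter. Summed blood markers did not pass 0.981 FPKM and summed endothelial markers did not pass 0.184 FPKM in any library. The fibroblast markers DCN and LUM were at or near 0, and COL1A1 was at 1.71 FPKM in the 769-P control and at 9.68 and 7.36 FPKM with the siRNAs. The DU145 control and the 769-P siRNA 2 library stood apart, with values above 0 for 287 and 237 of 366 olfactory receptor genes, which these cells should not transcribe, against 3 to 5 in the other libraries. The mean over those genes was 0.345 and 0.227 FPKM in these libraries, so member values of that size in them lay no higher than silent genes.

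Promoter windows show the letters that HIF is known to bind, an ACGTG or GCGTG core, in members that went different ways in the results below. A window of 250 bases before to 50 bases after a RefSeq start (GRCh38.p14) was found for 26 of the 33 members; VHL, VEGFA, NDUFA4L2, HILPDA, NDRG1, BNIP3L and LOXL2 had none in the table. Capitals mark ACGTG or GCGTG on either strand, so that CACGT and CACGC are the same letters read on the other strand, and overlapping matches are joined. Each sequence is written 5′ to 3′ on the strand of its gene and ends at the base before the start.
EPAS1, lower in 769-P (chr2:46297157-46297406, plus strand): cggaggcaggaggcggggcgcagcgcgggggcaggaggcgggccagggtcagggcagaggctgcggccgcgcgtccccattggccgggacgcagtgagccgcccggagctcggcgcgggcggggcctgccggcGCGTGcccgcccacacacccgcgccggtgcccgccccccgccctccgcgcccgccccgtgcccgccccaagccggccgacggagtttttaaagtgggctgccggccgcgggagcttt
ANGPTL4, lower in 769-P (chr19:8363905-8364154, plus strand): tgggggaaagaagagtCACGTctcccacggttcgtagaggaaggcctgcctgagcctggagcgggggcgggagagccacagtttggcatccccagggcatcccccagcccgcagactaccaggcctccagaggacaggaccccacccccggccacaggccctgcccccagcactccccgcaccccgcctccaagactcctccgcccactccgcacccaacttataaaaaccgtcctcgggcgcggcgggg
BHLHE40, higher in 769-P (chr3:4979187-4979436, plus strand): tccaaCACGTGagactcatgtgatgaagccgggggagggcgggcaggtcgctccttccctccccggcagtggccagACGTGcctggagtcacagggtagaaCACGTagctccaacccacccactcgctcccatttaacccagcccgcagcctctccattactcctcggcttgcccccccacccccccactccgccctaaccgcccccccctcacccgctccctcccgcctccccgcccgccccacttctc
EGLN1, not past the threshold between lines (chr1:231422288-231422537, minus strand): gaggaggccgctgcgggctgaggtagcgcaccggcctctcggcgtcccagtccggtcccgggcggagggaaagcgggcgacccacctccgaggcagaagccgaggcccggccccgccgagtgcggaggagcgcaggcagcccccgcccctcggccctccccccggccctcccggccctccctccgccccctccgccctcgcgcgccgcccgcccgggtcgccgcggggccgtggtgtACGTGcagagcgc
KDM4B, higher with both siRNAs in DU145 (chr19:4968863-4969112, plus strand): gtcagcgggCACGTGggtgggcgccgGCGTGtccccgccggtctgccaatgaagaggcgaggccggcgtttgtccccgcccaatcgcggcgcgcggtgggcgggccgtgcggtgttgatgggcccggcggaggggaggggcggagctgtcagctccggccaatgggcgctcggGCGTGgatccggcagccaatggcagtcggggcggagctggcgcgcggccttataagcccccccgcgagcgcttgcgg
CA9, at or near 0 in every library (chr9:35673898-35673927, plus strand): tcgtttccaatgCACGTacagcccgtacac

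ACGTG was present on either strand in the windows of 15 of the 26 members (57.7%), against 24.9% of 27305 genes with a window. By window it was present in 17 of 34, against 21.4% of 35116. GCGTG was present for 16 of 26 members (61.5%), against 40.6% of all genes, and in 20 of 34 windows (58.8%), against 36.5% of all. Most of these members were listed as known targets, and EPAS1, HIF1A and ARNT as HIF subunits, so the shares describe the list and are no test. Among members with a window, ACGTG was found in 4 of the 10 called lower in 769-P, in 2 of the 4 called higher and in 6 of the 8 tested members not past the threshold. It was thus found among members of each kind. The short CA9 stretch holds 1 directly before its start, although CA9 was nearly silent here.

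Does a renal line with hardly any VHL transcript carry higher levels of HIF target transcripts than a prostate line? Most members that differed between the lines were lower in 769-P. The lower members include VHL and the 3 HIF subunit genes, so the counts below do not cover targets alone. Of the 29 tested, 15 were lower in 769-P, 4 were higher and 10 did not pass an adjusted p of 0.05 (limma on log2(FPKM + 1), Benjamini-Hochberg over 11865 genes). Over all genes tested, 32.0% were lower and 18.2% were higher in 769-P, so the share of members called higher lay near the background. The 3 libraries of a line include the control and both knockdowns, and n = 3 below counts these libraries; the SD therefore includes the effect of the siRNAs. Differences below are 769-P minus DU145 in log2(FPKM + 1), which understates the fold of low genes.

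The filter on low values bears on these counts. EPAS1, VHL, EGLN3, PLOD2, CXCR4, ANGPTL4 and NDUFA4L2 had a mean under 1 FPKM in 769-P and entered the test only through DU145, so that these 7 had to be lower in 769-P. Among the 22 members with at least 1 FPKM in both lines, 8 were lower (36.4%), against 26.6% of 10192 such genes, and 4 were higher (18.2%), against 17.9%. The 8 include the HIF subunit genes HIF1A and ARNT, and the share for target genes alone is not given here. The libraries of the lines did not overlap for 16 of 29 members (55.2%), against 56.3% of all genes tested. The median line difference was -0.51 over the members and -0.16 over all genes. After each library was centred on its median the values were -0.31 and 0.04, and 14 members were then lower and 6 higher. The shares of all genes called after centring are not given here, so these counts have no background beside them. Without the DU145 control and the 769-P siRNA 2 library 9 members stayed lower and 1 higher, and ARNT, CXCR4, BNIP3, BNIP3L, NDUFA4L2, HILPDA, ADM, PLOD1 and WSB1 kept their sign but lost the call, with limma adjusted p from 0.0695 for CXCR4 to 0.455 for ADM.

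**Figure D1:**
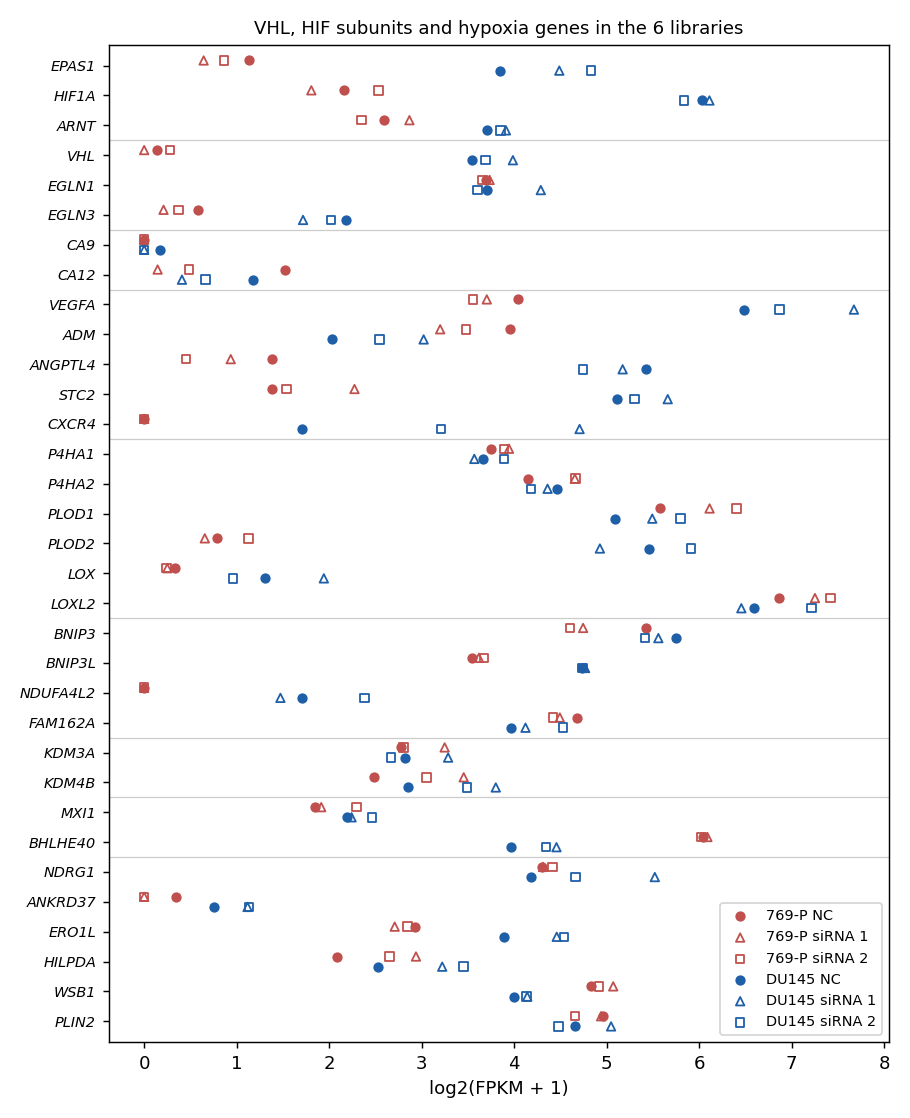
FPKM of all 33 genes in each of the 6 libraries, shown as log2(FPKM + 1), grouped by role. The DU145 libraries lie above the 769-P libraries for HIF1A, EPAS1, VHL, VEGFA, ANGPTL4, STC2 and PLOD2, and below them for BHLHE40 and WSB1.

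The 3 members that encode HIF subunits were all lower in 769-P, beside 32.0% of all genes tested, and EPAS1 had to be, as it entered the test only through DU145. EPAS1, which encodes HIF-2 alpha and lies at chr2:46520806-46613836 (GRCh37, plus strand), was at 1.2, 0.561 and 0.817 FPKM in the 769-P control, siRNA 1 and siRNA 2 libraries. It was at 13.4, 21.4 and 27.5 FPKM in the same order in DU145. The lines did not overlap, and the mean was 20.8 ± 7.05 FPKM in DU145 against 0.859 ± 0.320 FPKM in 769-P (SD, n = 3), a 24.2-fold ratio. The difference was -3.51 (SE 0.27, 95% interval -4.12 to -2.90, limma adjusted p = 2.05e-05). HIF1A, the gene of HIF-1 alpha, was at 3.46, 2.50 and 4.78 FPKM in 769-P. In DU145 it was at 64.4, 68.1 and 56.1 FPKM. These groups were again apart, by 17.6-fold in their means and by -3.83 on the log2 scale (SE 0.21, limma adjusted p = 4.45e-06). ARNT, the shared partner, was at 5.02, 6.30 and 4.10 FPKM in 769-P and at 12, 14 and 13.4 FPKM in DU145. Its difference was smaller, at -1.22 (SE 0.19, limma adjusted p = 0.000895), with a 2.56-fold ratio and no overlap. In 769-P the ARNT level thus lay above that of EPAS1 in each library, whereas in DU145 HIF1A was the highest of the 3 subunits.

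VHL, the substrate receptor that recognises hydroxylated HIF alpha (chr3:10183462-10195351, GRCh37, plus strand), was nearly absent from 769-P. It was at 0.1 FPKM in the control, listed at 0 with siRNA 1 and at 0.212 FPKM with siRNA 2. In DU145 it was at 10.7, 14.8 and 11.9 FPKM. The lines did not overlap, and the difference was -3.60 (SE 0.20, 95% interval -4.05 to -3.15, limma adjusted p = 4.29e-06). As VHL entered the test only through DU145, it had to be lower in 769-P. The 0.212 FPKM of the siRNA 2 library was under the 0.227 FPKM mean of its olfactory receptor genes. Transcript levels carry no information on mutations, and no variant was examined. The other components of the VHL complex were measured too. CUL2, its cullin scaffold, was higher in 769-P by 0.86 (limma adjusted p = 0.00381), and RBX1, TCEB1 and TCEB2 did not pass the threshold. After median centring RBX1 was called higher in 769-P (0.49, limma adjusted p = 0.0181).

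The prolyl hydroxylases that mark HIF alpha for VHL went different ways, although EGLN3 had to be lower in 769-P, as it entered the test only through DU145. EGLN1, the main oxygen sensor of the family, was at 11.9, 12.3 and 11.6 FPKM in 769-P and at 12, 18.5 and 11.1 FPKM in DU145. These groups overlapped, and the difference was -0.17 with a 95% interval of -0.64 to 0.30 (limma adjusted p = 0.521). Its sign turned to 0.03 after median centring. EGLN3, a strongly HIF-induced member of the family, was at 0.500, 0.156 and 0.295 FPKM in 769-P. In DU145 it was at 3.55, 2.29 and 3.06 FPKM, with no overlap and a difference of -1.59 (SE 0.20, limma adjusted p = 0.00029). EGLN2 was not analysed here.

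**Figure D2:**
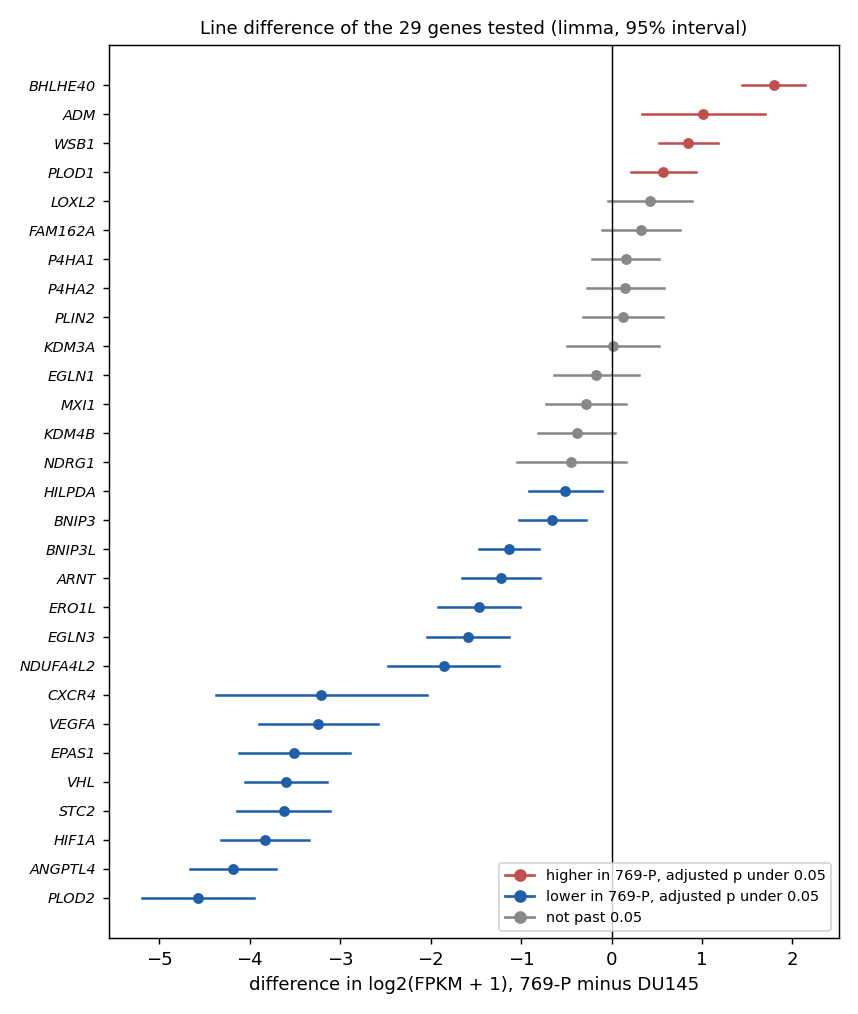
Line difference of the 29 genes tested, 769-P minus DU145 in log2(FPKM + 1), with the limma 95% interval as a bar. PLOD2 at -4.57 and BHLHE40 at 1.79 are the ends of the range, and 10 genes shown in grey did not pass an adjusted p of 0.05.

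Of 4 secreted factors and the chemokine receptor CXCR4, all but ADM were lower in 769-P, beside 32.0% of all genes tested. ANGPTL4 and CXCR4 entered the test only through DU145, so they had to be lower. VEGFA, the main angiogenic ligand, was at 15.4, 12 and 10.8 FPKM in 769-P and at 88.8, 203 and 116 FPKM in DU145. The groups were apart, by 10.7-fold in their means and by -3.25 on the log2 scale (SE 0.29, limma adjusted p = 4.59e-05). ANGPTL4, an inhibitor of lipoprotein lipase, was at 1.61, 0.913 and 0.370 FPKM in 769-P and at 42.0, 35.1 and 25.8 FPKM in DU145. Its difference was -4.19 (SE 0.21, limma adjusted p = 2.69e-06), with 35.5-fold more in DU145. STC2, a secreted glycoprotein, was at 1.61, 3.83 and 1.90 FPKM in 769-P and at 33.7, 49.5 and 38.4 FPKM in DU145. It differed by -3.63 (SE 0.22, limma adjusted p = 7.2e-06). CXCR4, the receptor of the chemokine CXCL12, was listed at 0 in all 3 libraries of 769-P and was at 2.27, 25.1 and 8.24 FPKM in DU145. The difference for CXCR4 was -3.21 (limma adjusted p = 0.00103), and the DU145 libraries were themselves far apart for this gene, with a mean of 11.9 ± 11.8 FPKM (SD, n = 3).

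ADM, the gene of the vasodilator peptide adrenomedullin, went the other way. It was at 14.5, 8.19 and 10.1 FPKM in 769-P and at 3.08, 7.12 and 4.82 FPKM in DU145. Every 769-P library was higher than every DU145 library, by 1.01 on the log2 scale (SE 0.30, 95% interval 0.34 to 1.69, limma adjusted p = 0.0206). The size depended on treatment, at 1.93 between the controls, 0.18 between the siRNA 1 libraries and 0.94 between the siRNA 2 libraries. ADM lost its call in 6 of 16 alternatives, and without the DU145 control and the 769-P siRNA 2 library its adjusted p was 0.455.

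Among the enzymes that modify collagen, PLOD2 and PLOD1 went in opposite directions, although PLOD2 had to be lower in 769-P, as it entered the test only through DU145. PLOD2, a lysyl hydroxylase of collagen telopeptides, was at 0.725, 0.575 and 1.18 FPKM in 769-P and at 42.8, 29.4 and 59.3 FPKM in DU145. The difference of -4.57 (SE 0.27, limma adjusted p = 5.98e-06) was the widest of the members tested, with a 52.9-fold ratio. PLOD1, a lysyl hydroxylase of the collagen helix, was at 46.7, 68.2 and 83.7 FPKM in 769-P and at 32.9, 44 and 54.7 FPKM in DU145. Its libraries overlapped between lines, but within each treatment 769-P was higher (0.49, 0.62 and 0.60), and the difference of 0.57 passed the threshold (SE 0.16, limma adjusted p = 0.0153). PLOD1 lost its call in 7 of 16 alternatives. The prolyl hydroxylases of collagen, P4HA1 and P4HA2, differed by 0.16 (95% interval -0.22 to 0.53) and 0.15 (95% interval -0.27 to 0.58) and did not pass the threshold.

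The lysyl oxidases that cross-link collagen were at very different levels. LOXL2 was the most abundant member in 769-P, at 115, 151 and 170 FPKM, and was at 95.2, 86.8 and 147 FPKM in DU145. The groups overlapped, and the difference of 0.43 had an adjusted p of 0.112 in limma, which became 0.037 with the replicate block and 0.0431 after median centring. LOX was far lower, at 0.181 to 0.256 FPKM in 769-P and 0.943 to 2.84 FPKM in DU145, and was not tested. Its libraries did not overlap between the lines.

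The mitochondrial members were mostly lower in 769-P (3 of 4, beside 32.0% of all genes tested). Among them NDUFA4L2 had to be lower, as it entered the test only through DU145. BNIP3 and BNIP3L encode receptors for the removal of mitochondria. BNIP3L was at 10.7, 11.3 and 11.7 FPKM in 769-P and at 25.6, 26.2 and 25.7 FPKM in DU145. It varied little within a line and differed by -1.13 between them (SE 0.14, limma adjusted p = 0.000312). BNIP3 was at 41.8, 25.8 and 23.3 FPKM in 769-P and at 53.0, 46.1 and 41.7 FPKM in DU145. The 769-P control lay just above the lowest DU145 library, and the difference was -0.65 (SE 0.16, limma adjusted p = 0.00924). NDUFA4L2, a respiratory chain protein that is abundant in clear cell renal carcinoma, was listed at 0 in all 3 libraries of 769-P. In DU145 it was at 2.27, 1.78 and 4.21 FPKM (-1.86, limma adjusted p = 0.000604). FAM162A, a mitochondrial protein tied to cell death, was at 20.4 to 24.6 FPKM in 769-P and 14.7 to 22.1 FPKM in DU145, and its adjusted p of 0.185 in limma became 0.03 after median centring.

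The regulators of transcription held the gene with the widest difference towards 769-P. BHLHE40, a repressor that is also part of the circadian clock, was at 64.8, 67.1 and 64.1 FPKM in 769-P and at 14.6, 21.0 and 19.3 FPKM in DU145. The groups were far apart, by 3.57-fold in their means and by 1.79 on the log2 scale (SE 0.15, 95% interval 1.44 to 2.14, limma adjusted p = 3.72e-05). The histone demethylases KDM3A and KDM4B and the MYC antagonist MXI1 did not pass the threshold. Their differences were 0.02 (95% interval -0.49 to 0.52), -0.38 (95% interval -0.81 to 0.04) and -0.28 (95% interval -0.72 to 0.16).

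The other targets were divided. ERO1L, an oxidase of protein folding in the endoplasmic reticulum, was at 6.58, 5.54 and 6.20 FPKM in 769-P and at 13.8, 21.0 and 22.3 FPKM in DU145. It did not overlap and differed by -1.47 (SE 0.20, limma adjusted p = 0.000423). WSB1, a substrate receptor of another ubiquitin ligase, was at 27.5, 32.6 and 29.3 FPKM in 769-P and at 14.9, 16.6 and 16.6 FPKM in DU145. It was higher in 769-P by 0.85 (SE 0.14, limma adjusted p = 0.0014), with no overlap. HILPDA, an inhibitor of lipolysis, had a mean of 5.06 ± 1.73 FPKM in 769-P and 7.67 ± 2.65 FPKM in DU145 (SD, n = 3). Its libraries overlapped, and its difference of -0.51 (limma adjusted p = 0.0414) lost the call in 13 of 16 alternatives, with an adjusted p of up to 0.39. PLIN2, which coats lipid droplets, and the stress gene NDRG1 differed by 0.13 (95% interval -0.31 to 0.57) and -0.44 (95% interval -1.05 to 0.16) and did not pass the threshold.

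The carbonic anhydrases of the cell surface were low in both lines. CA9, a classic HIF-1 target and marker of clear cell renal carcinoma, was listed at 0 in all 3 libraries of 769-P and in both SPOP siRNA libraries of DU145. The DU145 control held 0.130 FPKM, which was less than the 0.345 FPKM mean of olfactory receptor genes in that library. CA12 was at 1.87, 0.106 and 0.400 FPKM in 769-P and at 1.25, 0.327 and 0.582 FPKM in DU145. In both lines the control was the highest of the 3 libraries. ANKRD37, a small ankyrin protein, was at 0.274 FPKM in the 769-P control and listed at 0 with both siRNAs there, against 0.691, 1.17 and 1.19 FPKM in DU145.

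Further HIF targets outside the 33 were read from a second list. Of 26 in the tables, 23 were tested, and 6 were higher and 11 lower in 769-P, beside 18.2% and 32.0% of all genes. RAB20, AK4, TMEM45A and PDK1 had a mean under 1 FPKM in 769-P and entered the test only through DU145, so they had to be lower. The other tested genes of this list reached 1 FPKM in both lines, and all 6 higher ones were among them. Of all genes in the series with at least 1 FPKM in both lines, 17.9% were higher and 26.6% lower. The matching shares of this list are not given here. Those higher included PDGFB (2.94), TGFA (0.97), PGK1 (0.81), PFKFB3 (0.80) and CCND1 (0.67), as log2 differences in limma. The 11 lower genes were DDIT4 (-2.81), SLC7A5 (-2.31), RAB20 (-1.73), AK4 (-1.64), ZNF395 (-1.40), TMEM45A (-1.31), IGFBP3 (-1.02), NOL3 (-1.01), PDK1 (-0.89), PFKFB4 (-0.68) and ALDOA (-0.46). The glucose transporter SLC2A1 did not pass (0.35, limma adjusted p = 0.135), but was called higher in 769-P after median centring (0.55, limma adjusted p = 0.0436). Of the 9 partners of VHL and HIF in the tables, 8 were tested, with CUL2 higher and the coactivator CREBBP lower in 769-P (-0.80, limma adjusted p = 0.0048). In the main limma test CITED2 (adjusted p = 0.228), EP300 (0.0877) and INSIG2 of the further targets (0.0643) did not pass. Only with the replicate block were they called lower in limma (adjusted p = 0.0193, 0.0442 and 0.0373). The difference of CITED2 changed sign, to 0.05, without the DU145 control and the 769-P siRNA 2 library. ARNT2 was not analysed here.

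Did SPOP knockdown move these transcripts within a line? In DU145, 4 of 29 members were at least 1.5-fold higher than the control with both siRNAs (13.8%), where 4.72% of all genes were. No member was 1.5-fold lower with both, where 1.19% of all genes were. The 4 were CXCR4, EPAS1, KDM4B and HILPDA, and only CXCR4 passed 2-fold, which 0.666% of genes did upward and 0.329% downward. These folds are ratios of FPKM + 1 and rest on 1 control library per line, which has no replicate, so the calls are by size and not by a test. In the limma test of knockdown none of the 29 passed an adjusted p of 0.05 in DU145 (0.135% of genes did), and 5 members had an unadjusted p under 0.05 (6.27% of all genes), CXCR4, EPAS1, HILPDA, KDM4B and ERO1L.

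CXCR4 went from 2.27 FPKM in the DU145 control to 25.1 FPKM with siRNA 1 and 8.24 FPKM with siRNA 2. These are changes of 3.0 and 1.5 on the log2 scale, and the siRNAs were themselves 1.5 apart. The limma adjusted p was 0.719. EPAS1 in DU145 was higher by 0.64 and 0.98 with siRNA 1 and siRNA 2, from 13.4 FPKM. KDM4B, a histone H3 lysine demethylase, was at 6.22 FPKM in the DU145 control and at 12.9 and 10.3 FPKM with the siRNAs (0.95 and 0.64). HILPDA was at 4.75 FPKM and then 8.33 and 9.93 FPKM (0.70 and 0.92). Over all genes the siRNA 1 library of DU145 had a median change of 0.07 and the siRNA 2 library one of 0.12. After centring on these medians CXCR4 and HILPDA kept the call, whereas EPAS1 (0.57 and 0.86) and KDM4B (0.88 and 0.52) did not, and 2 of 29 members against 2.87% of all genes were then called. The DU145 control is also the library with the most values at olfactory receptor genes. With the mean of those genes subtracted from each library, 6 members were past 1.5-fold in DU145, and the mean changes of CXCR4, EPAS1, KDM4B and HILPDA were 2.41, 0.85, 0.87 and 0.90. The share of all genes past 1.5-fold after this subtraction is not given here, so the count of 6 cannot be read as particular to the members.

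Other DU145 members passed 1.5-fold upward with 1 siRNA. In all, 7 members did so with siRNA 1 and 8 with siRNA 2, beside 12% and 11.3% of all genes. With siRNA 1 NDRG1 was at 44.9 FPKM against 17.2 FPKM in the control (1.34), and with siRNA 2 it was at 24.3 FPKM (0.48). VEGFA was higher by 1.18 with siRNA 1 and by 0.38 with siRNA 2, and ADM by 0.99 and 0.51. With siRNA 2, PLOD1 (0.71), NDUFA4L2 (0.67) and LOXL2 (0.63) were past 1.5-fold, and ERO1L was just short of the call by both, at 0.57 and 0.65. Among the 29 members, 18 were higher with siRNA 1 than with siRNA 2 (62.1%), against 44% of all genes. By 1.5-fold, siRNA 1 was above siRNA 2 for CXCR4, VEGFA, NDRG1, EGLN1 and KDM3A (17.2% of members, against 6.69% of all genes). In turn siRNA 2 was above siRNA 1 for PLOD2, LOXL2 and NDUFA4L2 (10.3%, near the 10.9% of all genes). The median over the members was 0.39 and 0.27 in these libraries, and 17 of 29 were above the control with both (58.6%), against 43.5% of all genes.

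**Figure D3:**
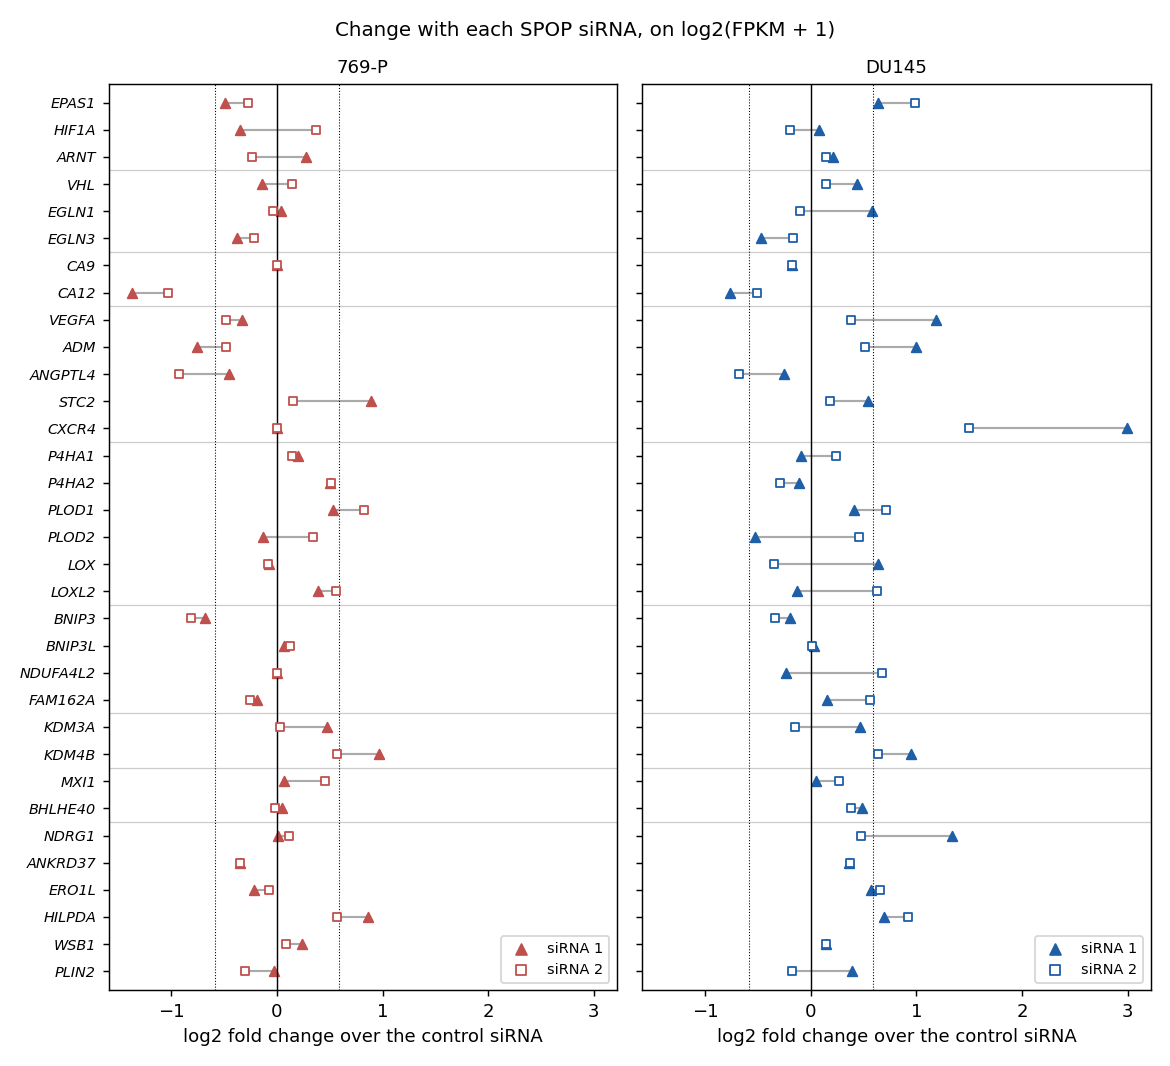
Change of all 33 genes with siRNA 1 and siRNA 2 over the control of its line, in log2(FPKM + 1), with DU145 and 769-P in separate panels and the 1.5-fold limits marked. In DU145, CXCR4 lies farthest from 0, at 3.0 and 1.5; in 769-P, BNIP3 lies past the lower limit with both siRNAs, at -0.68 and -0.82, as does CA12, which was not tested.

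In 769-P 1 member was called. None of 29 was 1.5-fold higher with both siRNAs (3.60% of all genes were), and 1 was 1.5-fold lower (3.73% of all genes were). None passed 2-fold, which 0.657% of genes did upward and 0.565% downward. The member called was BNIP3, which was at 41.8 FPKM in the control and at 25.8 and 23.3 FPKM with the siRNAs, or -0.68 and -0.82. In the limma test of knockdown in 769-P no adjusted p of a member was under 0.05 (0.101% of genes were), and BNIP3, PLOD1, HILPDA and KDM4B had an unadjusted p under 0.05, as did 6.97% of all genes. KDM4B (0.97 and 0.57) and HILPDA (0.86 and 0.57) lay just short of 1.5-fold with siRNA 2, and both passed after centring, when 4.16% of all genes did. The 769-P siRNA 2 library is the other one with values at olfactory receptor genes. The median change of the members was 0.01 and 0.03, beside 0.00 and -0.06 over all genes.

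Of the 29 members, 8 were above the control in all 4 siRNA libraries (27.6%), against 20.1% of all genes, and 3 were below it in all 4 (10.3%), against 13.6%. The 8 were KDM4B, HILPDA, PLOD1, STC2, BNIP3L, MXI1, NDRG1 and WSB1, and the 3 were ANGPTL4, BNIP3 and EGLN3. PLOD1 was higher by 0.53 and 0.83 in 769-P and by 0.41 and 0.71 in DU145. ANGPTL4 was at -0.45 and -0.93 in 769-P and at -0.25 and -0.68 in DU145. CA12, untested for its low level, was below the control in all 4 as well, at -1.37 and -1.03 in 769-P and at -0.76 and -0.51 in DU145. The siRNA libraries of a line share 1 control, so agreement between them rests partly on that library. When limma tested whether the knockdown effect differed by line, no member had an adjusted p under 0.05 (0.169% of genes did), and ADM, EPAS1 and CXCR4 had an unadjusted p under 0.05, as did 2.74% of all genes.

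Of the 23 further HIF targets tested, CCND1, which encodes cyclin D1, was past 1.5-fold downward with both siRNAs in both lines. It went from 379 to 180 and 125 FPKM in 769-P and from 193 to 106 and 104 FPKM in DU145. IGFBP3, which binds insulin-like growth factors, was past 1.5-fold upward in both lines, from 1.04 to 4.57 and 2.83 FPKM in 769-P and from 1.56 to 7.04 and 16.6 FPKM in DU145. INSIG2 was past it downward in 769-P, and TMEM45A was past it upward in DU145. In 769-P, 1 of the 23 was thus past it upward and 2 downward, beside 3.60% and 3.73% of all genes. In DU145, 2 were past it upward and 2 downward, beside 4.72% and 1.19%. None of the 8 partners of VHL and HIF tested passed 1.5-fold with both siRNAs in either line.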

How the data were processed

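RNA-Seq was carried out on 6 libraries, 1 for each siRNA and line. Per the labels and the methods, polyadenylated RNA was sequenced as paired 100 bp reads, and the authors mapped reads to hg19 with TopHat2, allowing at most 2 mismatches, and deposited FPKM values from Cufflinks. FastQC and cutadapt are named in the submitters' processing notes. Versions, annotation and the use of strand were not given in the sources used here, so overlapping and antisense genes cannot be told apart. The methods speak of 2 biological replicates, while the labels give 1 library per siRNA, so p-values measure only the spread between these libraries. The files hold no counts, and the depth is unknown.

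Values with the same symbol were summed, and log2(FPKM + 1) was used. The 11865 genes that reached a mean of 1 FPKM were tested with limma 3.58.1 in R 4.3.3, with a trend on mean expression and Benjamini-Hochberg adjustment over all of them; the line test had line and knockdown as terms, and the knockdown test had 4 groups. Members past 1.5-fold or 2-fold in 1 direction with both siRNAs were called by size. All members are named. The members, the pathway lists (partners of VHL and HIF, further HIF targets) and the marker lists (renal, prostate or epithelial, blood, endothelial, fibroblast) were chosen with earlier results of these data known, and some listed genes are counted but not reported here. Treatments are shared by the lines through the siRNA numbers in the labels. The deviations from the line mean correlated between lines by 0.35 for NC, 0.33 for siRNA 1 and 0.25 for siRNA 2 over 11865 genes. These values can also hold a shared difference between control and knockdown. The change from siRNA 1 to siRNA 2 correlated between lines by 0.27, so same-numbered siRNA libraries deviated partly alike. The script was tested on simulated data. Alternatives were a pseudocount of 0.1, no filter or at least 5 FPKM, median centring, subtraction of the mean of olfactory receptor genes, quantile normalization, no trend, the replicate block, each siRNA alone, the mean of both, and libraries left out. Python 3.11.15 was used with numpy 2.4.6, pandas 2.3.3 and matplotlib 3.10.9. Gene positions are from GENCODE on GRCh37 and promoter windows from RefSeq on GRCh38.p14, and no coordinate was converted between builds.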

Additional observations from a re-analysis of the deposited data

Results flagged for a closer look

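For 7 of the 33 genes both siRNA libraries of DU145 lay on one side of their control and both of 769-P on the other. Among the genes tested this held for 6 of 29 (20.7%) and for 13.8% of all 11865. The limma test of this difference gave an adjusted p of 0.999 for each of the 6, so none passed the threshold. The mean change was 0.81 in DU145 and -0.38 in 769-P for EPAS1, a difference of 1.19 (unadjusted p = 0.0274 in limma). For ADM it was 0.75 and -0.62, a difference of 1.37 (unadjusted p = 0.0238 in limma). VEGFA had 0.78 and -0.41, a difference of 1.19, and ERO1L had 0.61 and -0.15, a difference of 0.76. FAM162A differed by 0.58, at 0.36 in DU145 and -0.22 in 769-P. P4HA2 went the other way, at -0.20 in DU145 and 0.51 in 769-P, a difference of -0.71. ANKRD37 differed by 0.72, and under 1 FPKM it was not tested. Each line has 1 control, and a control that differs from its siRNA libraries moves both changes of its line together.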

How the results depend on the processing

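For the line difference, the 19 called members gave 268 values on the same side of the threshold, 34 no longer past it and 0 reversed over the alternatives. The 4 members higher in 769-P became 2 without the filter, 1 without the DU145 control and the 769-P siRNA 2 library, and 2 to 4 with single libraries left out, 2 each without the 769-P control, the 769-P siRNA 2 library or the DU145 control. The 15 lower members became 9 without both libraries and stayed at 14 to 15 with single ones left out. With the replicate block LOXL2 joined the calls (adjusted p = 0.037) and 5 were higher; the block changed no other call among the 33. Uncalled members that changed sign were EGLN1 (0.000533 with quantile normalization, 0.031 after median centring, -0.34 to 0.050 with single libraries left out, positive without DU145 siRNA 1), KDM3A (-0.12 without 769-P siRNA 1, -0.17 without DU145 siRNA 2, up to 0.18), MXI1 (0.072 with quantile normalization) and PLIN2 (-0.0097 without DU145 siRNA 2, up to 0.32). The cause was not tested.

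For knockdown at 1.5-fold, the 4 members higher in DU145 became 2 after centring, 7 to 8 with 1 siRNA alone and 8 by the mean of both, since a rule on 1 value is looser, and the 0 lower became 0 to 1 with 1 siRNA alone. In 769-P the 0 higher became 2 with a pseudocount of 0.1, 2 after centring, 1 to 3 with 1 siRNA alone and 3 by the mean. The 1 lower became 3 with a pseudocount of 0.1, 2 without the filter, 2 with either siRNA alone and 3 by the mean. At 2-fold, the 1 higher in DU145 became 1 to 3 with 1 siRNA alone, and the 0 lower in 769-P became 1 without the filter, which let CA12 in. Without the filter limma called 2 members in DU145 and 2 for the difference between lines, CA9 and ANKRD37, both under 1 FPKM on average. FPKM without counts set no interval on a single value, so differences among members near 1 FPKM are the least certain.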
